A study of Mus musculus with 9 samples.

Results

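Guanylate-binding proteins (GBPs) and immunity-related GTPases (IRGs) are families of interferon-induced GTPases, and 10 genes of these families are described here in activated CD4+ helper T cells. The 10 genes, taken by symbol from a count table of 55536 genes, are 7 GBP genes (Gbp2, Gbp3, Gbp4, Gbp5, Gbp6, Gbp7 and Gbp9) and 3 IRG genes (Igtp, Irgm1 and Iigp1). All 10 passed the filter on low counts, which left 14684 genes. In each of the 9 libraries, RNA came from splenic CD4+ T cells of male mice aged 6 to 12 weeks whose genotype is given as WT, cultured for 18 h with 5 ng/mL murine IL-2 and beads whose antibodies to CD3 and CD28 mimic antigen and its second signal. Against this shared background, 3 cultures received EKO-BMDM-exo, exosomes (small secreted vesicles) from ApoE-deficient mice, 3 received WT-BMDM-exo, exosomes from wild-type mice, and 3 received phosphate-buffered saline (PBS) with no exosomes. BMDM usually stands for bone marrow-derived macrophages, the exosome dose was 2e+09 particles per mL, and no label says whether the cultures of a group came from separate mice.

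Interferon gamma binds its receptor, made of IFNGR1 and IFNGR2, and activates the kinases JAK1 and JAK2. The signal reaches target promoters at GAS elements and, through IRF1 and related factors, at interferon-stimulated response elements (ISRE), and GBP and IRG genes are classical targets of both routes. GBP proteins coat and break the vacuoles and membranes of intracellular pathogens and feed inflammasome activation. IRG proteins fall into effectors that load onto pathogen vacuoles and regulators, named Irgm, that hold the effectors inactive on host membranes. In CD4+ T cells Irgm1 is also known to protect dividing cells from death triggered by interferon gamma.

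The depth was 25792975 to 32971791 counts per library. Libraries EKO-BMDM-exo 3 and EKO-BMDM-exo 1 stood apart from all others on the first (18.8% of the variance) and second (15.7%) principal components of log2 CPM, where CPM are counts per 1000000 counts on scaled library sizes. Between 19038 and 19518 genes had a count in the EKO-BMDM-exo libraries and between 19989 and 20568 in the others. Every result for EKO-BMDM-exo was therefore also computed without its libraries 1 and 3, an alternative chosen after seeing the data that leaves 1 library in that group. All 10 CD4 T cell markers on the fixed list passed the filter, with Cd4 at 868 CPM in PBS. Cd8a did not exceed 1.06 CPM in any library, while Cd8b1 averaged 11.1 CPM in PBS.

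Promoter windows are shown first because the members are known interferon targets. Whether the motif matches go with the changes in mRNA was not tested. RefSeq promoters of build GRCm38.p6, running from 250 bases before to 50 after the start site, were at hand for 6 of the 10 members and gave 7 promoters, since Gbp3 has 2 starts. They were searched on both strands for the GAS letters TTCNNNGAA, which read the same on either strand, and for the ISRE letters, which are GAAA, any 2 bases and GAAA again, and read TTTC, any 2 bases and TTTC on the other strand. The windows run 5′ to 3′ on the strand of the gene and start at base -110, except for Gbp2, counted from the RefSeq start site as base 1. Capitals mark every match to either motif within the printed window.
Gbp5, chr3:142496824-142496899, plus strand: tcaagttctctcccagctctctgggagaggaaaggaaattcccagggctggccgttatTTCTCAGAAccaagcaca
Gbp7, chr3:142530226-142530325, plus strand: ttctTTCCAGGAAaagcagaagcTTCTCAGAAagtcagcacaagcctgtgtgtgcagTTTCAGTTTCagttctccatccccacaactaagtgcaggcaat
Gbp3, chr3:142559934-142560025, plus strand: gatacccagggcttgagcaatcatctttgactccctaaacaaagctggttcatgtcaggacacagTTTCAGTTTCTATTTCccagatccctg
Gbp2, chr3:142620589-142620618, plus strand: taggaactcttttagTTTCACTTTCactgt
Irgm1, chr11:48871431-48871530, minus strand: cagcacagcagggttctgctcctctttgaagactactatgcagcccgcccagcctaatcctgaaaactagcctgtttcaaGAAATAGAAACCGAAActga
Igtp, chr11:58199446-58199545, plus strand: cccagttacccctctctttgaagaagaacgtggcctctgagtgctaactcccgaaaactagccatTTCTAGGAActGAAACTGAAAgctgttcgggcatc

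ISRE letters were in 6 of the 7 member promoters (85.7%), against 3.44% of all 32851 promoters in the table and 3.13% of the 12762 promoters of genes tested. GAS letters were in 3 of 7 (42.9%), those of Gbp5, Gbp7 and Igtp, against 8.3% of all promoters and 6.9% of those of genes tested. The same 3 held both motifs, as did 0.454% of all promoters. In Gbp5 the ISRE match begins at base -165 and a further GAS match at base -245, both before the printed window. The 4 GBP promoters with a match carried the ISRE letters on the strand opposite to the gene, and the 2 IRG promoters carried them on the strand of the gene. In Gbp3 and in Irgm1 a pair of ISRE matches overlapped. By GENCODE, the windows of Gbp7, Gbp3 and Igtp lie upstream of the annotated gene, that of Gbp5 is intronic, that of Irgm1 lies within an exon of a processed transcript, and 17 of the 30 bases of the Gbp2 window fall in a UTR.

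In Igtp the ISRE letters began 11 bases after the first base of the GAS letters. This spacing, noticed after the matches were seen, occurred on the strand of the gene in 5 of 32851 promoters (0.0152%). All 5 belong to IRG genes on chromosome 11. The bases around the matches are also much alike between Igtp and Irgm2, and among Tgtp1, Tgtp2 and Gm12185. The 5 promoters are therefore not independent cases of the spacing. Their 31-base windows are given so that they can be read against each other.
Igtp, chr11:58199506-58199536, plus strand: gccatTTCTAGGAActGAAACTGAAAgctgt
Irgm2, chr11:58214897-58214927, plus strand: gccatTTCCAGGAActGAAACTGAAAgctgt
Tgtp1, chr11:48992309-48992339, minus strand: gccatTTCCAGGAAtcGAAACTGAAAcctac
Tgtp2, chr11:49064268-49064298, minus strand: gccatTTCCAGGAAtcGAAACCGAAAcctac
Gm12185, chr11:48927243-48927273, minus strand: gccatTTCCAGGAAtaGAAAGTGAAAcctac

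**Figure D1:**
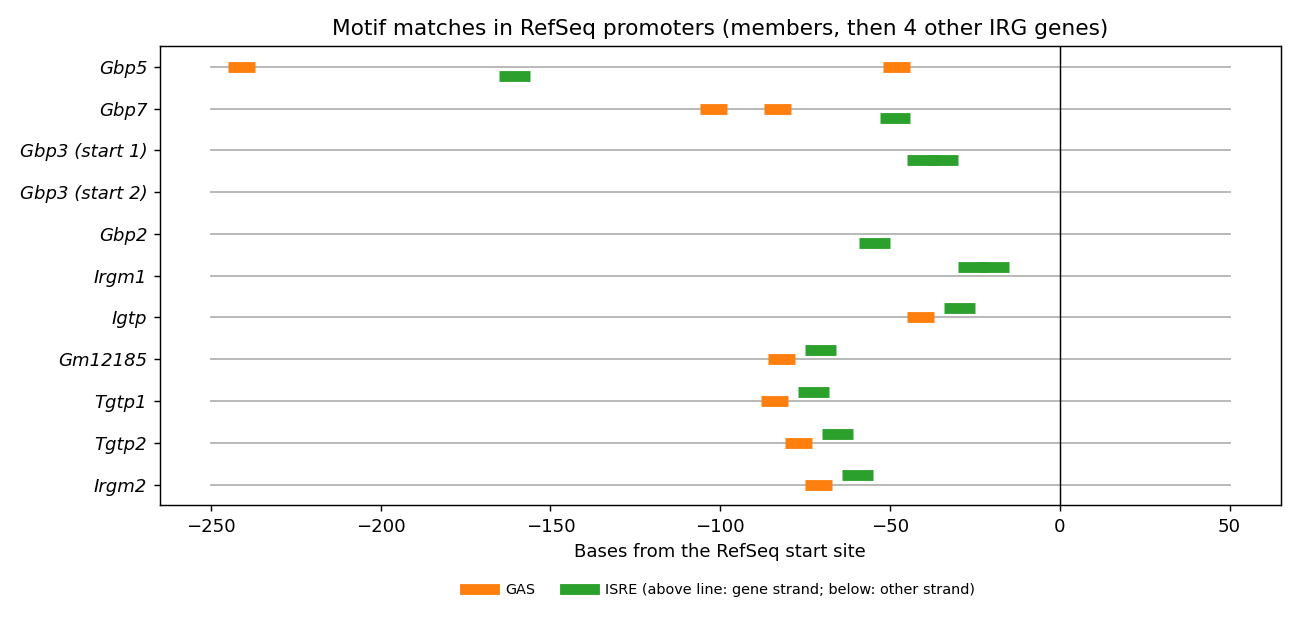
GAS and ISRE letter matches along RefSeq promoters; the horizontal axis is the distance in bases from the start site, orange bars are GAS matches and green bars are ISRE matches, drawn above the line on the strand of the gene and below it on the other strand. In Igtp, Gm12185, Tgtp1, Tgtp2 and Irgm2 a GAS match is followed by an ISRE match 11 bases later, and in the 4 GBP promoters with a match every ISRE match lies below the line.

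The levels of the members in PBS spread widely. In CPM per kilobase of exon, Gbp2 stood highest at 629.1 ± 14.4 (SD, n = 3), followed by Igtp at 358.5 ± 7.95. Gbp5 was at 91.1 ± 0.948 and Irgm1 at 50.4 ± 1.78. Iigp1, at 37.9 ± 2.47, and Gbp4, at 37.8 ± 1.95, overlapped in their libraries, and every other pair of neighbours in the order was apart. Gbp3 followed at 19.9 ± 0.854, Gbp9 at 15.2 ± 0.979 and Gbp7 at 12.6 ± 0.776. Gbp6 was lowest at 3.84 ± 0.314. The highest and lowest members differed 164-fold per kilobase of exon, 71.6-fold per kilobase of the longest coding transcript and 69.1-fold in CPM. Each ratio rests on Gbp6, whose level is uncertain because 70.7% of the 50-base stretches of its transcripts also occur in other genes.

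With the longest coding transcript in place of all exons, each member kept its rank in PBS. With WT-BMDM-exo the same order held per kilobase of exon except that Gbp4, at 45.2 ± 0.625 CPM per kilobase, stood above Iigp1, at 40.6 ± 2.35, with no overlap. With EKO-BMDM-exo, Gbp4 at 46.5 ± 3.71 again stood above Iigp1 at 42.6 ± 2.62, but these overlapped, as did Gbp9 and Gbp7. Per kilobase of the longest coding transcript Iigp1 stood above Gbp4 in both exosome groups, at 75.8 against 74.6 with WT-BMDM-exo and 79.5 against 76.8 with EKO-BMDM-exo, so the order of this pair depends on the length used. Of the summed CPM of the 10 members in PBS, Gbp2 made up 40.1%, Igtp 18.4% and Gbp5 15.3%, and Gbp6 0.6%. By CPM, Gbp2 ranked 29, Igtp 119 and Gbp5 176 among the 14684 genes tested.

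The members lie in clusters. On mouse chromosome 3 (build GRCm38, plus strand), Gbp5 spans chr3:142493978-142522344, Gbp7 chr3:142530342-142550149, Gbp3 chr3:142560026-142573209 and Gbp2 chr3:142620602-142638008. On the minus strand of chromosome 5, Gbp9 spans chr5:105077630-105139539 and overlaps Gbp4 at chr5:105115767-105139586, and Gbp6 lies at chr5:105270702-105293698. Irgm1 (chr11:48861968-48871683, minus strand) and Igtp (chr11:58199556-58207591, plus strand) are on chromosome 11, and Iigp1 is on chromosome 18. All 10 are protein-coding in the GENCODE M21 annotation.

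**Figure D2:**
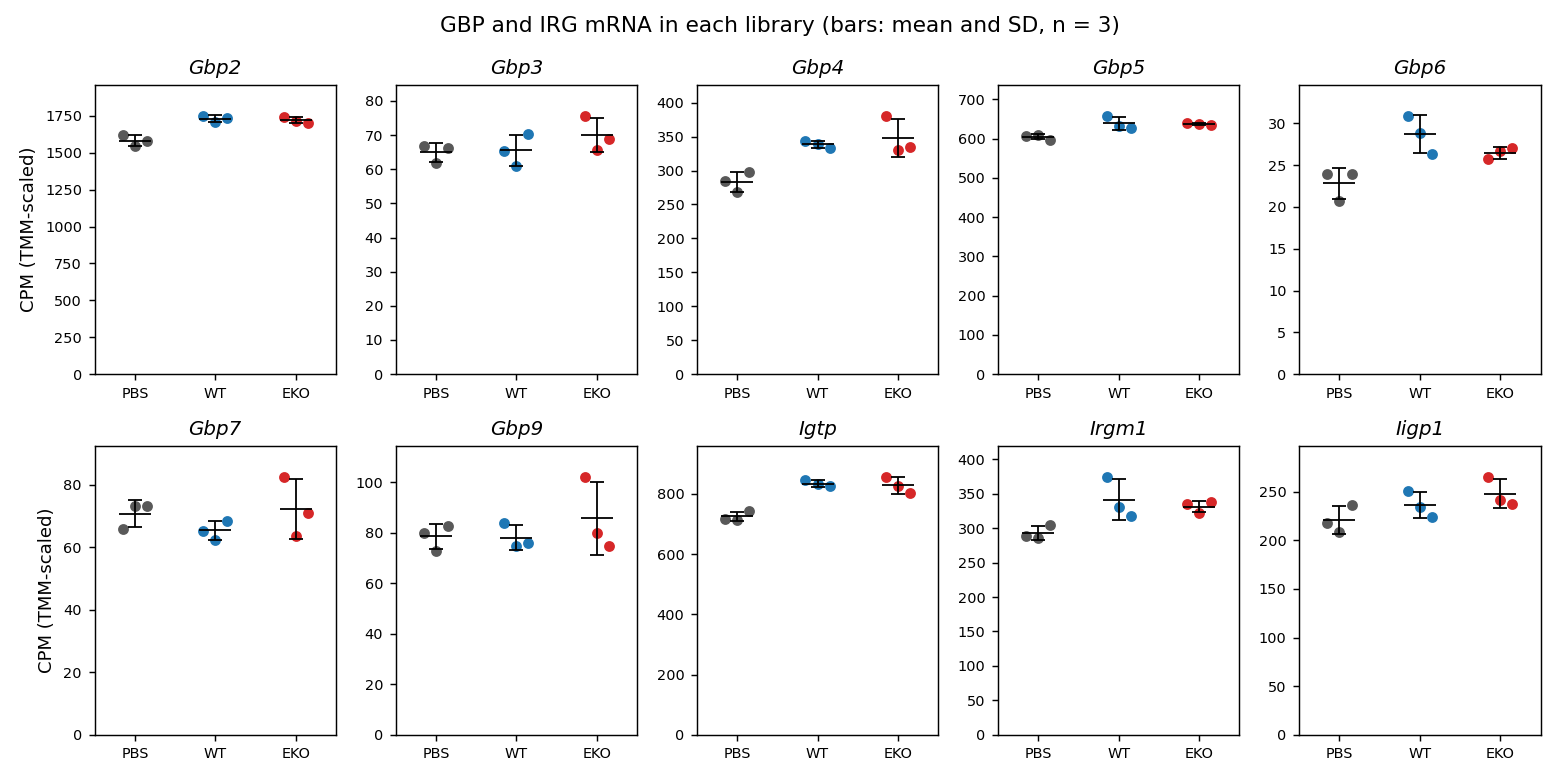
CPM on TMM-scaled library sizes of the 10 members in each library, with the vertical axis of each panel starting at 0; points are libraries 1 to 3 from left to right in the PBS, WT-BMDM-exo (WT) and EKO-BMDM-exo (EKO) groups, and bars are the mean and SD (n = 3). For Gbp2, Gbp4, Gbp5, Gbp6, Igtp and Irgm1 the PBS libraries sit below all 6 exosome libraries, and for Gbp3, Gbp7 and Gbp9 the groups overlap.

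Both kinds of exosome went with modestly higher mRNA of a subset of the members, with the smallest p-values for Gbp4 and Igtp. Against PBS, 5 of 10 members (Gbp2, Gbp4, Igtp, Irgm1 and Iigp1) rose with EKO-BMDM-exo and 0 fell in the edgeR quasi-likelihood test at an adjusted p under 0.05, where 2.21% of all genes tested were called higher and 2.87% lower. With WT-BMDM-exo 5 of 10 (Gbp2, Gbp4, Gbp6, Igtp and Irgm1) rose and 0 fell, where 1.83% of all genes were called higher and 3.14% lower. At an unadjusted p under 0.05, 7 members were higher and 0 lower with EKO-BMDM-exo, where 8.59% of all genes were higher and 8.55% lower. With WT-BMDM-exo 6 were higher and 0 lower, against 7.35% and 8.43% of all genes. The called rises lay between 8.76% and 22.9% for EKO-BMDM-exo. The median log2 fold change over the 10 members was 0.15 for EKO-BMDM-exo and 0.11 for WT-BMDM-exo, beside a median of 0 over all genes tested in either comparison. Both comparisons use the same 3 PBS libraries. In bulk RNA, more cells of a kind and more RNA per cell cannot be told apart.

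The summed CPM of the 10 members was 3971.2, 3860.2 and 4009.3 in PBS. It was 4467.5, 4304.3 and 4305.2 with WT-BMDM-exo and 4506.4, 4308.4 and 4290.9 with EKO-BMDM-exo. The lowest exosome library thus stood above the highest PBS library, and the group means were 1.1 times the PBS mean for WT-BMDM-exo and 1.11 times for EKO-BMDM-exo. Library EKO-BMDM-exo 1 held the highest value of all 9 libraries for 6 members (Gbp3, Gbp4, Gbp7, Gbp9, Igtp and Iigp1), and WT-BMDM-exo 1 for the other 4.

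Gbp4, reported to bind the transcription factor IRF7, had the largest rise of the members called against PBS with EKO-BMDM-exo. It was at 283.9, 268.8 and 298.1 CPM in PBS, at 342.8, 339.2 and 333.5 with WT-BMDM-exo and at 380.5, 330.7 and 334.2 with EKO-BMDM-exo. All 6 exosome libraries were above all 3 PBS libraries, and EKO-BMDM-exo 1 stood above the rest. The log2 fold change was 0.30 ± 0.045 (SE), or 22.9%, for EKO-BMDM-exo (edgeR adjusted p = 9.99e-05) and 0.26 ± 0.045, or 19.4%, for WT-BMDM-exo (edgeR adjusted p = 0.000507). Without EKO-BMDM-exo libraries 1 and 3 the rise was 0.22 ± 0.050 with an edgeR adjusted p of 0.0154.

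Gbp2, a prenylated GBP recruited to parasite vacuoles and bacteria, was the most abundant member and rose by less. Its CPM was 1618.8, 1546.3 and 1583.1 in PBS, 1749.8, 1708.6 and 1736.5 with WT-BMDM-exo and 1743.5, 1717.7 and 1703.1 with EKO-BMDM-exo. No exosome library reached down to the PBS range. The rise was 0.12 ± 0.024 on the log2 scale, or 8.76%, for EKO-BMDM-exo (edgeR adjusted p = 0.00192) and 0.13 ± 0.024, or 9.41%, for WT-BMDM-exo (edgeR adjusted p = 0.000835). With EKO-BMDM-exo 2 alone in its group, the log2 fold change was 0.12 and the edgeR adjusted p was 0.0477.

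Gbp5, a prenylated GBP known for promoting NLRP3 inflammasome assembly, did not pass the test in either comparison although its groups were apart. It was at 608.0, 608.6 and 597.4 CPM in PBS, 658.0, 632.7 and 627.5 with WT-BMDM-exo and 639.0, 636.3 and 635.0 with EKO-BMDM-exo. The log2 fold change was 0.07 ± 0.029 for EKO-BMDM-exo (edgeR adjusted p = 0.157) and 0.08 ± 0.029 for WT-BMDM-exo (edgeR adjusted p = 0.127). Of all 18 alternative settings, the DESeq2 Wald test was the only one to call it, at an adjusted p of 0.0405 and 0.0267.

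Gbp6, which has been found at Toxoplasma vacuoles, was the least abundant member. It stood at 23.9, 20.7 and 23.9 CPM in PBS, 30.9, 28.8 and 26.4 with WT-BMDM-exo and 25.7, 26.7 and 27.1 with EKO-BMDM-exo. The groups were apart from PBS, yet it was called for WT-BMDM-exo alone, at 0.33 ± 0.094 (edgeR adjusted p = 0.0401), and had 0.21 ± 0.095 for EKO-BMDM-exo (edgeR adjusted p = 0.233). The direct difference between the exosome groups was -0.11 (95% interval -0.31 to 0.08). The call was lost without PBS 1, PBS 2, PBS 3, WT-BMDM-exo 1 or WT-BMDM-exo 2, with an adjusted p of up to 0.261. Its count is uncertain, since 70.7% of the 50-base stretches of its transcripts also occur in other genes, mostly in Gm43302, which had a count of 0 in all libraries, and in Gbp10.

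Gbp3, Gbp7 and Gbp9, GBPs of lower level that have all been found at Toxoplasma vacuoles, did not pass the test in any comparison. Gbp3 was at 66.9, 61.8 and 66.1 CPM in PBS, 65.4, 60.9 and 70.2 with WT-BMDM-exo and 75.6, 65.7 and 68.7 with EKO-BMDM-exo. Gbp7 was at 65.7, 73.3 and 73.3 CPM in PBS, 65.3, 62.4 and 68.5 with WT-BMDM-exo and 82.6, 63.5 and 70.9 with EKO-BMDM-exo. Gbp9 was at 80.1, 73.0 and 82.8 CPM in PBS, 83.8, 74.7 and 75.9 with WT-BMDM-exo and 102.3, 79.9 and 75.0 with EKO-BMDM-exo. The groups overlapped for all 3 genes, and library EKO-BMDM-exo 1 was the highest for each. Their log2 fold changes were 0.11, 0.03 and 0.12 for EKO-BMDM-exo (edgeR adjusted p = 0.444, 0.895 and 0.473). For WT-BMDM-exo they were 0.01, -0.11 and -0.01 (edgeR adjusted p = 0.968, 0.518 and 0.98). Without EKO-BMDM-exo 1 the value against PBS was -0.07 for Gbp7 and -0.02 for Gbp9.

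Among the IRG members, Igtp, a regulator also called Irgm3, was the most abundant and its call was kept under all alternatives. Its CPM was 717.4, 714.0 and 743.3 in PBS, 845.7, 832.1 and 824.5 with WT-BMDM-exo and 856.9, 824.3 and 802.3 with EKO-BMDM-exo. The lowest exosome library was above the highest PBS library. The rise was 0.19 ± 0.030 on the log2 scale, or 14.2%, for EKO-BMDM-exo (edgeR adjusted p = 0.000132) and 0.20 ± 0.030, or 15.1%, for WT-BMDM-exo (edgeR adjusted p = 5.7e-05). Without EKO-BMDM-exo libraries 1 and 3 it was 0.18 (edgeR adjusted p = 0.00472). Igtp shares 162 exon bases with Irgm2 on the same strand, and 11.8% of its 50-base stretches occur in Irgm2 too.

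Irgm1, the regulator tied to CD4+ T cell survival, rose in both exosome groups. It was at 288.3, 285.6 and 304.7 CPM in PBS, 374.6, 330.7 and 318.2 with WT-BMDM-exo and 334.8, 321.5 and 337.6 with EKO-BMDM-exo. The exosome libraries were all above the PBS libraries, with WT-BMDM-exo 1 the highest. The log2 fold change was 0.18 ± 0.045, or 13.1%, for EKO-BMDM-exo (edgeR adjusted p = 0.0169) and 0.22 ± 0.045, or 16.5%, for WT-BMDM-exo (edgeR adjusted p = 0.00248). The first call was lost without PBS 1 (edgeR adjusted p = 0.0935), PBS 2 (0.12) or EKO-BMDM-exo 3 (0.0599), and without EKO-BMDM-exo 1 and 3 together (0.352). The second was lost without WT-BMDM-exo 1 (edgeR adjusted p = 0.0548).

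Iigp1, the effector also called Irga6, was the member whose call was least stable. It was at 218.1, 208.2 and 236.5 CPM in PBS, 251.1, 234.3 and 224.0 with WT-BMDM-exo and 265.5, 242.0 and 237.0 with EKO-BMDM-exo. The lowest EKO-BMDM-exo library lay just above the highest PBS library, and WT-BMDM-exo overlapped both other groups. The rise was 0.17 ± 0.049, or 12.3%, for EKO-BMDM-exo (edgeR adjusted p = 0.0447), and the value for WT-BMDM-exo was 0.10 ± 0.049 (edgeR adjusted p = 0.339). The call was lost without PBS 1, PBS 2, WT-BMDM-exo 2, WT-BMDM-exo 3, EKO-BMDM-exo 1, EKO-BMDM-exo 2, or EKO-BMDM-exo 1 and 3 together, with an adjusted p of up to 0.391. It was also lost with total-count scaling (0.0517) and in a fit of the 2 groups alone (0.0557).

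Counting members by overlap alone, 7 of 10 had every EKO-BMDM-exo library above every PBS library, as did 9.94% of all genes tested, and for WT-BMDM-exo this held for 6 of 10, against 10.6% of all genes. None of the 10 had an exosome group wholly below PBS, as 10.6% of all genes had for EKO-BMDM-exo and 11.6% for WT-BMDM-exo. Between the exosome types the groups of all 10 members overlapped, where 5.88% of all genes tested had EKO-BMDM-exo wholly above and 5.97% wholly below. Leaving out PBS 1 or PBS 2 left 3 members called for EKO-BMDM-exo (Gbp2, Gbp4 and Igtp), and so did leaving out EKO-BMDM-exo 1 and 3, where 0.508% of all genes were called higher. For WT-BMDM-exo, 3 members remained called without WT-BMDM-exo 1.

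The exosome types, which came from mice that differ in ApoE genotype, were compared directly. How many exosome preparations stand behind each type is not given here, so genotype and preparation cannot be told apart. Not 1 of the 10 members was called in either direction between EKO-BMDM-exo and WT-BMDM-exo (edgeR quasi-likelihood test), where 0.0272% of all genes were called higher and 0.00681% lower. At an unadjusted p under 0.05 the count was 0 of 10, beside 3.89% of all genes higher and 3.19% lower, and limma-voom and the DESeq2 Wald test also called 0. The median difference over the members was 0.02 on the log2 scale. The 95% intervals of this difference were -0.06 to 0.04 for Gbp2, -0.07 to 0.05 for Igtp, -0.05 to 0.13 for Gbp4, -0.13 to 0.05 for Irgm1 and -0.03 to 0.17 for Iigp1. The largest difference was that of Gbp7, 0.15 (95% interval -0.01 to 0.30), and it fell to 0.04 without EKO-BMDM-exo 1.

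**Figure D3:**
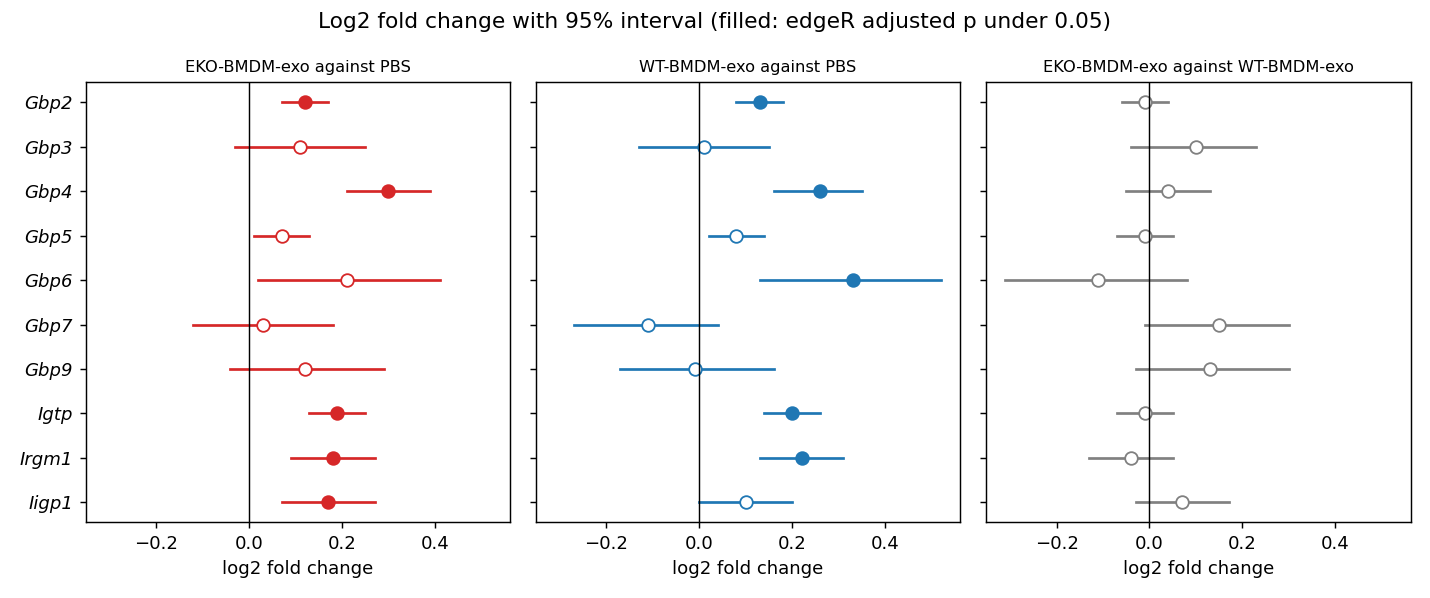
Log2 fold change of each member (point) with its 95% interval (line) in 3 comparisons, with filled points for an edgeR adjusted p under 0.05 and a vertical line at 0. 5 points are filled in each comparison with PBS, and none in the comparison of the exosome types, where each interval includes 0.

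Of the further GBP, IRG and GVIN genes (the giant interferon-inducible GTPases), 20 of 22 listed passed the filter. For EKO-BMDM-exo 3 of 20 rose and 0 fell, with a median log2 fold change of 0.23, and for WT-BMDM-exo 4 rose and 0 fell, with a median of 0.21. The median for EKO-BMDM-exo was 0.08 without EKO-BMDM-exo 1, 0.12 without PBS 1, 0.15 without PBS 2, 0.14 without EKO-BMDM-exo 1 and 3 and 0.15 when genes had to average 5 CPM. The median for WT-BMDM-exo was 0.32 without PBS 3. The number called higher ranged from 2 to 5 and from 1 to 6 over fits without 1 library, with 5 for EKO-BMDM-exo without EKO-BMDM-exo 2 or EKO-BMDM-exo 3. For WT-BMDM-exo it was 1 without PBS 1, WT-BMDM-exo 1 or WT-BMDM-exo 2, and 2 without PBS 2 or WT-BMDM-exo 3. Between the exosome types 0 were called by edgeR, DESeq2 or limma-voom, with 0 higher and 1 lower at an unadjusted p under 0.05 and a median of 0.03. Ifi47, the effector also called Irgd, was at 315.3, 312.0 and 335.0 CPM in PBS, 392.6, 364.4 and 371.0 with WT-BMDM-exo and 366.0, 373.6 and 381.1 with EKO-BMDM-exo. Its exosome libraries were all above PBS, at 0.22 ± 0.037 for EKO-BMDM-exo (edgeR adjusted p = 0.000358) and 0.23 ± 0.037 for WT-BMDM-exo (edgeR adjusted p = 0.000181).

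Irgm2, the third Irgm regulator, was at 147.1, 155.4 and 161.2 CPM in PBS, 180.7, 185.4 and 169.0 with WT-BMDM-exo and 197.0, 188.1 and 177.1 with EKO-BMDM-exo. It rose by 0.28 ± 0.048 with EKO-BMDM-exo (edgeR adjusted p = 0.000449) and by 0.21 ± 0.048 with WT-BMDM-exo (edgeR adjusted p = 0.00802), the latter call being lost without PBS 1, WT-BMDM-exo 1 or WT-BMDM-exo 2 (up to 0.0853). Gm8995 (0.30 for EKO-BMDM-exo and 0.24 for WT-BMDM-exo) and Gm12250 (0.18 for WT-BMDM-exo) were the other genes called, at edgeR adjusted p-values of 0.00788, 0.0371 and 0.0361. Both calls of Gm8995 and that of Gm12250 failed, each in 3 or more of the 9 fits that left out 1 library. Both genes are typed as pseudogenes in the GENCODE M21 annotation, and whether either encodes a protein was not tested.

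The effectors Tgtp1 and Tgtp2 share 81.2% and 86.6% of their 50-base stretches with other genes, mainly each other, so their counts are uncertain. Tgtp1 had log2 fold changes of 0.35 for EKO-BMDM-exo (edgeR adjusted p = 0.0833) and 0.38 for WT-BMDM-exo (0.059), and Tgtp2 had 0.11 (0.697) and 0.37 (0.0638). Gbp8, at 51.0 ± 4.28 CPM in PBS, had 0.07 (edgeR adjusted p = 0.715) and 0.21 (0.0955). Gbp10, of which 84.1% is shared, had -0.05 and 0.07. The remaining genes of the list, Gbp2b, Gbp11, Gm12185, Gm4951, F830016B08Rik, 9930111J21Rik1, 9930111J21Rik2, Irgc1, Irgq, Gvin1, Gm4070 and Gm1966, did not pass in any comparison. Of these, Gvin1, Gm4070, 9930111J21Rik1 and 9930111J21Rik2 share 99.2%, 97.8%, 83.2% and 59.8% of their 50-base stretches with other genes, so their counts are uncertain too.

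Upstream of the members, the transcription factors Irf1 and Irf8 rose with both exosome types, while the ligand Ifng and its receptor chains were not called. Of 24 ligand, receptor and signalling genes, 6 rose and 1 fell with EKO-BMDM-exo, with a median log2 fold change of 0.08. With WT-BMDM-exo 2 rose and 1 fell, with a median of 0.11. Over fits without 1 library the number higher was 2 to 7, with 2 without PBS 1 or PBS 2 and 3 without EKO-BMDM-exo 1 or EKO-BMDM-exo 3, and 2 to 4 for WT-BMDM-exo, with 4 without PBS 3. Between the exosome types 0 were called by edgeR, DESeq2 or limma-voom, and 2 were higher at an unadjusted p under 0.05. Irf1 and Irf8 kept their calls in both comparisons in each fit without 1 library. Stat2, Irf9 and the transactivator genes Nlrc5 and Ciita were not called in either comparison.

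Irf8, a transcription factor that acts with IRF1 on interferon gamma targets, had the largest called rise of the pathway. Its CPM was 550.9, 534.7 and 530.9 in PBS, 667.7, 671.0 and 659.1 with WT-BMDM-exo and 635.9, 642.5 and 664.5 with EKO-BMDM-exo, so all exosome libraries were above PBS. The log2 fold change was 0.27 ± 0.030 for EKO-BMDM-exo (edgeR adjusted p = 1.66e-06) and 0.31 ± 0.030 for WT-BMDM-exo (edgeR adjusted p = 1.35e-07). Irf1 was at 492.7, 478.6 and 489.9 CPM in PBS, 579.6, 561.0 and 559.9 with WT-BMDM-exo and 577.9, 559.5 and 533.3 with EKO-BMDM-exo. It rose by 0.19 ± 0.033 (edgeR adjusted p = 0.000363) and 0.22 ± 0.032 (edgeR adjusted p = 6.92e-05).

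Irf2 (0.18), the suppressor Socs1 (0.17), the type I receptor chain Ifnar1 (0.17) and Parp14 (0.18) were called for EKO-BMDM-exo at edgeR adjusted p-values of 0.0252 to 0.0353. Each of these calls was lost in 4 or more of the 9 fits without 1 library. Without EKO-BMDM-exo 1 and 3, 3 genes of the list (Irf1, Irf8 and Socs1) were called higher and 0 lower for EKO-BMDM-exo.

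Jak2, the receptor kinase, was the gene that fell, at 364.6, 352.8 and 376.9 CPM in PBS, 341.7, 330.2 and 323.1 with WT-BMDM-exo and 334.2, 328.2 and 324.2 with EKO-BMDM-exo. Its log2 fold change was -0.15 ± 0.035 for EKO-BMDM-exo (edgeR adjusted p = 0.01) and -0.14 ± 0.035 for WT-BMDM-exo (edgeR adjusted p = 0.0183). The first call was lost without PBS 3 (0.0579) or without EKO-BMDM-exo 1 and 3 (0.122), and the second without PBS 1, PBS 3, WT-BMDM-exo 2 or WT-BMDM-exo 3 (up to 0.127). Jak1 did not pass, at 0.07 and 0.06.

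Ifng itself was low, at 4.01, 6.92 and 4.95 CPM in PBS, 9.02, 7.29 and 5.95 with WT-BMDM-exo and 6.84, 6.28 and 7.37 with EKO-BMDM-exo. Both exosome groups overlapped PBS. The log2 fold change was 0.37 ± 0.199 for EKO-BMDM-exo (edgeR adjusted p = 0.359) and 0.49 ± 0.198 for WT-BMDM-exo (edgeR adjusted p = 0.196). Ifngr1 had 0.00 and -0.19 (edgeR adjusted p = 0.995 and 0.212), and Ifngr2 had 0.06 in both.

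**Figure D4:**
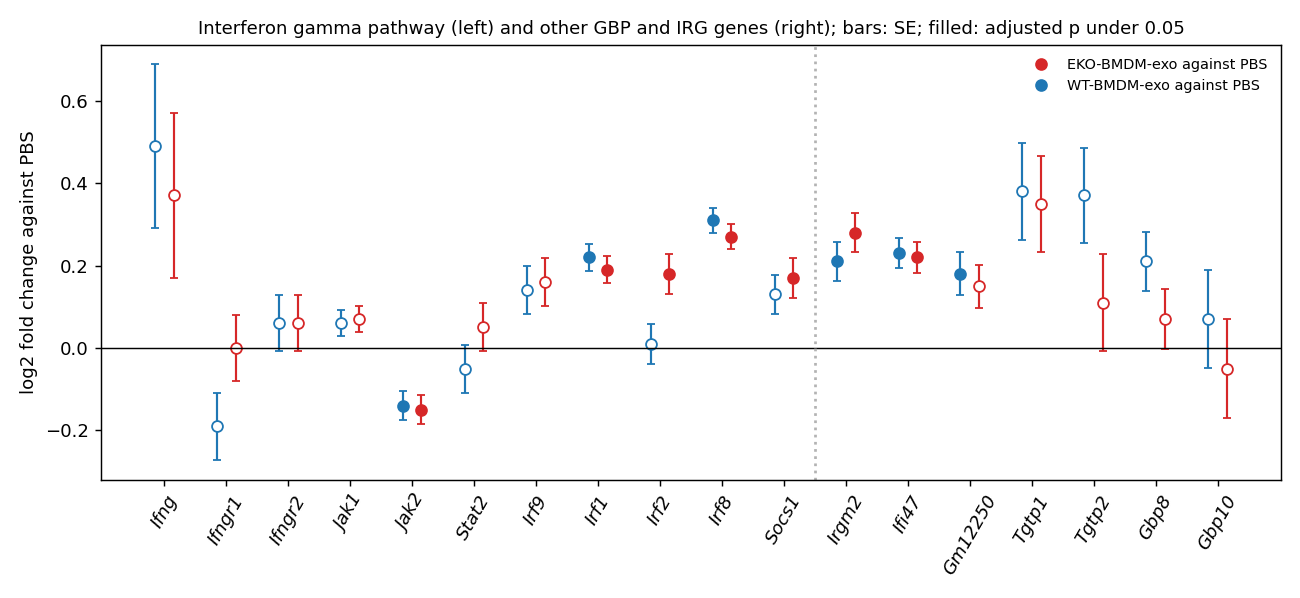
Log2 fold change against PBS (vertical axis) of interferon gamma pathway genes, left of the dotted line, and of further IRG and GBP genes, right of it; red is EKO-BMDM-exo, blue is WT-BMDM-exo, bars are SE, and filled points have an edgeR adjusted p under 0.05. Irf1, Irf8 and Ifi47 are filled and above 0 in both colours, Jak2 is filled and below 0, and Ifng is open with SE bars of about 0.2.

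Other genes induced by interferon gamma moved in part. Of 29 tested, 9 rose and 0 fell with EKO-BMDM-exo and 6 rose and 0 fell with WT-BMDM-exo, with medians of 0.03 and 0.02. This list shares Irf1 and Socs1 with the signalling list, and their calls are counted in both. The number higher fell to 6 for EKO-BMDM-exo and to 3 for WT-BMDM-exo without PBS 2. Those that kept their calls in each fit without 1 library for EKO-BMDM-exo were Irf1, the peptide transporter chain Tap2 (0.23), its partner Tapbp (0.19), the class I light chain B2m (0.19), Cd274 (0.31), which encodes PD-L1, and the nucleotide hydrolase Samhd1 (0.16). For WT-BMDM-exo they were Irf1, Tap2 (0.25) and Tapbp (0.21). Without EKO-BMDM-exo 1 and 3, 6 of the list were called higher for EKO-BMDM-exo, no longer including Cd274 (edgeR adjusted p = 0.0741) or Tapbp (0.0618). Of this list, B2m alone was called between the exosome types, at 0.13 (edgeR adjusted p = 0.0403, up to 0.407 without 1 library), and not with total-count scaling.

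Genes typical of the type I interferon response were read beside these. Of 31 antiviral genes such as Isg15, Irf7 and Oasl2, 1 rose with EKO-BMDM-exo (Slfn5, 0.31, edgeR adjusted p = 0.0457, up to 0.325 without 1 library). With WT-BMDM-exo 0 were called by edgeR, DESeq2 or limma-voom, with 1 higher and 7 lower at an unadjusted p under 0.05. Between the exosome types 0 were called by these tools, with 3 higher and 1 lower at an unadjusted p under 0.05. The medians were 0.02, -0.11 and 0.08, and the first was -0.1 without EKO-BMDM-exo 1. Isg15 was at 7.42 CPM in PBS, 5.10 with WT-BMDM-exo and 7.37 with EKO-BMDM-exo, and Irf7 at 24.5, 19.6 and 26.4.

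Few genes whose products act with GBP and IRG proteins were called. Of 11 genes for prenylation, the lipid attachment that anchors some GBPs, 0 were called in any comparison by edgeR. At an unadjusted p under 0.05, 0 passed for EKO-BMDM-exo, where the smallest p was that of Zmpste24 (-0.12, edgeR adjusted p = 0.327), 1 was lower for WT-BMDM-exo and 1 was higher between the exosome types. Of 15 autophagy and ubiquitin partners, Traf6 (0.14, edgeR adjusted p = 0.0296) and Ulk1 (0.24, edgeR adjusted p = 0.0172) rose with EKO-BMDM-exo and Traf6 with WT-BMDM-exo (0.13, edgeR adjusted p = 0.046). Leaving out 1 library at a time ended all 3 calls in at least 3 of 9 fits, and without EKO-BMDM-exo 1 and 3 the first pair had edgeR adjusted p-values of 0.226 and 0.397. Of 9 inflammasome genes tested, 0 were called in any comparison by edgeR, and at an unadjusted p under 0.05 the counts were 0 for EKO-BMDM-exo, 1 higher for WT-BMDM-exo and 1 lower between the exosome types, with Casp1 at 3.39 and Aim2 at 13.8 CPM in PBS.

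Markers of other cell types were measured beside the members. The summed level of 15 macrophage markers was 79.9 to 89.9 CPM in PBS, 94.2 to 100.6 with WT-BMDM-exo and 96.4 to 103.7 with EKO-BMDM-exo. The sum was thus wholly above PBS in both exosome groups, but single markers differed. Ctss averaged 46.3 CPM in PBS, 54.1 with WT-BMDM-exo and 54.7 with EKO-BMDM-exo, and Apoe 15, 18 and 17.8. Cd68 went the other way, at 8.07, 7.03 and 7.03 CPM. Of the markers tested, 4 of 6 had a log2 fold change above 0 for EKO-BMDM-exo and 5 of 6 for WT-BMDM-exo. Of the 15, 6 passed the filter, C1qa and Marco had a count of 0 in all libraries, Adgre1 did not exceed 0.106 CPM, and Csf1r and Ctss were called higher with EKO-BMDM-exo, calls lost in 7 and 8 of the 9 fits without 1 library. The part of macrophage RNA in the members' rises was not tested. Summed B cell markers were at 524.3 to 566 CPM in PBS, 512.3 to 577.1 with WT-BMDM-exo and 611 to 616.8 with EKO-BMDM-exo, where Ighm and Igkc were called higher. These immunoglobulin genes made up most of the sum, at means of 427.6 and 104.6 CPM in PBS. Against PBS, the Ighm call was lost without PBS 1 or PBS 3, and the Igkc call without PBS 1. Igkc was also called higher with EKO-BMDM-exo than with WT-BMDM-exo (edgeR adjusted p = 0.00219, lost without WT-BMDM-exo 1 or WT-BMDM-exo 2). The other tested B cell markers averaged at most 1.69 CPM in PBS. Of the 9 tested, 6 were above 0 for EKO-BMDM-exo, while Cd79b (-0.58), Pax5 (-0.37) and Ms4a1 (-0.21) were below. NK and CD8 T cell markers summed to 29 to 34.7 CPM in PBS, 31.9 to 34.7 with WT-BMDM-exo and 36 to 38.4 with EKO-BMDM-exo, which lay wholly above the others. Eomes averaged 17.5 CPM in PBS, 21.6 with WT-BMDM-exo and 23.8 with EKO-BMDM-exo. Cd8b1 went the other way, at 11.1, 8.58 and 9.52 CPM, with both exosome groups wholly below PBS, and was not called. Over the 5 markers tested, the median log2 fold change for EKO-BMDM-exo was -0.22, with 2 above 0. Of these markers Eomes was called higher with EKO-BMDM-exo (0.44, edgeR adjusted p = 0.017, lost without PBS 2 or EKO-BMDM-exo 2), and Gzma, at 1.03 CPM in PBS and 0.191 with WT-BMDM-exo, was called lower there (edgeR adjusted p = 0.0323, lost in 6 of 9 fits without 1 library). Dendritic cell markers summed to 13.1 to 16.1 CPM and neutrophil markers to 4.12 to 8.44 over all libraries. The neutrophil gene S100a9 had counts of 1, 18 and 21 in PBS, 0 in each WT-BMDM-exo library and 0, 0 and 18 with EKO-BMDM-exo, and was called lower for WT-BMDM-exo (edgeR adjusted p = 0.0407, also lost in 6 of 9 fits). The part of these cells was not tested either.

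The markers of CD4 T cells themselves moved little in sum, at 4439.7 to 4561 CPM in PBS, 4359.4 to 4484.7 with WT-BMDM-exo and 4590.7 to 4680 with EKO-BMDM-exo, the last wholly above the others. Cd3e, a chain of the T cell receptor complex (0.12, edgeR adjusted p = 0.0361), and the receptor Cd5 (0.11, edgeR adjusted p = 0.0489) were called higher with EKO-BMDM-exo, and each call was lost in 8 of the 9 fits without 1 library. The surface protein gene Thy1 fell with WT-BMDM-exo, from 460, 472.6 and 447.8 CPM in PBS to 376.5, 397.5 and 397.4. Its log2 fold change was -0.24 ± 0.037 (edgeR adjusted p = 0.000139), and the call was kept in each fit without 1 library. The part of these changes in the members' rises was not tested.

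The members varied together to different degrees over the 9 libraries. The Pearson correlation of the log2 CPM of a member with the mean of the other 9 was 0.95 for Gbp4, 0.92 for Iigp1, 0.87 for Igtp, 0.84 for Gbp2, 0.79 for Irgm1 and 0.76 for Gbp5. It was 0.6 for Gbp6 and Gbp9, 0.57 for Gbp3 and 0.1 for Gbp7. The 9 points are libraries of 3 groups and share library size and scaling, so these values describe the pattern and include the differences between groups. Of 9558 further genes at a mean of 5 CPM or more, the 8 most like the mean of the members were Atf7ip (0.981), Dph2 (0.976), Cd274 (0.966), Sntb1 (0.963), Ap1s2 (0.96), Arid4a (0.959), Setd1b (0.957) and Hectd2 (0.951). Of the signalling genes, Parp14 ranked 44 at 0.92, Irf1 ranked 110 at 0.88, Irf8 ranked 620 at 0.73 and Ifng ranked 1853 at 0.5. Genes not called against PBS, among them Jak1 (165 at 0.86), Irf9 (197 at 0.84) and Ifnar2 (233 at 0.83), ranked above Irf8.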

How the data were processed

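Messenger RNA of 9 cultures, 3 per group, was sequenced after RNeasy Mini extraction and Universal Plus mRNA-Seq library preparation, per the labels' protocols. The authors deposited raw read counts for each gene, in whole numbers and without normalization. Reads were aligned with STAR 2.7.5c to GRCm38, per the submitters' processing notes, but for the counting tool, strand setting, annotation and reads that map to several genes, the choice is not given in the sources used here. Reads of paralogues with shared sequence can therefore be split or lost. All 55536 Ensembl identifiers matched GENCODE M21, from which symbols, coordinates and exon lengths were taken.

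Groups came from sample titles and treatment labels. The design calls the replicates biological without naming separate mice, so that p-values reflect only how much these cultures varied, which may be technical. Counts of replicates differed beyond sampling noise in every pair (chi-square over degrees of freedom of 5.02 to 9.08), and each library was counted once.

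Counts were analysed with edgeR 4.0.16 in R 4.3.3 with filterByExpr (minimum count 10, minimum total 15), TMM scaling, 1 model of 3 groups over all 9 libraries without covariates, the quasi-likelihood F test and Benjamini-Hochberg adjustment over 14684 genes, called under 0.05. CPM use TMM-scaled library sizes, SE is that of the log2 fold change, and intervals are at 95%. Correlations used log2 CPM with a prior count of 2. Alternatives used limma 3.58.1 (voom), DESeq2 1.42.0, other scaling and filters, a replicate block, and fits without single libraries. The fits were tested on simulated counts. Shared stretches are 50-base runs of GENCODE transcripts found in another gene. Promoters were searched with Python 3.11.15.

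All members were named in every comparison, with the tested genes of the GBP, IRG and GVIN list, fixed and called signalling genes, and the genes of other lists by smallest p or by call. The members and lists were chosen with earlier results of these data known. A signalling gene is not reported here and is left out of its list. The GAS and ISRE pair, B2m, Tap2, Tapbp, Samhd1, Casp1 and Isg15 where they fall outside the rule were named after their values were seen.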

Additional observations from a re-analysis of the deposited data

How the results depend on the processing

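Gbp2, Gbp4 and Igtp kept their calls against PBS under all 18 alternatives for both exosome types. No member was called lower under any of them, and none between the exosome types. Over fits without 1 library, the number of members called higher ranged from 3 to 5 for EKO-BMDM-exo and from 3 to 5 for WT-BMDM-exo. It was 3 for EKO-BMDM-exo without libraries 1 and 3, an alternative chosen after seeing the data that assumes the lone library varies like the others; the group then has fewer samples. With the DESeq2 Wald test 6 members were called for either exosome type, the sixth being Gbp5. Same-numbered libraries did not deviate together (correlations of -0.02 to 0.024), so the numbers were not taken as pairs. A replicate block gave 4 members called for each exosome type, no longer Iigp1 for EKO-BMDM-exo (edgeR adjusted p = 0.0551) or Gbp6 for WT-BMDM-exo (0.0598), 256 in place of 325 genes higher overall for EKO-BMDM-exo, and 2 in place of 4 of the further GBP, IRG and GVIN genes for WT-BMDM-exo. For EKO-BMDM-exo, all genes called higher numbered 537 with DESeq2 and 148 to 209 without PBS 1, PBS 2 or EKO-BMDM-exo 1, in place of 325. Without EKO-BMDM-exo 1 and 3 they numbered 84. For WT-BMDM-exo they numbered 410 with DESeq2, 436 in a fit of the 2 groups alone, and 129 to 144 without PBS 1, PBS 2 or any WT-BMDM-exo library, in place of 269. Genes called lower fell to 227 to 245 from 421 without PBS 1 or PBS 2 (165 without EKO-BMDM-exo 1 and 3), and to 269 to 297 from 461 for WT-BMDM-exo without PBS 1, PBS 2 or any WT-BMDM-exo library. Between the exosome types 4 genes were higher and 1 lower, and other settings gave 0 to 24 and 0 to 5. Over 540 member values under alternatives, 517 kept their side of the threshold, 21 lost a call, 2 gained one and 0 called values reversed. Only the 5 members called in each comparison with PBS could lose a call, and sign changes of uncalled values were counted as kept. The cause of the lost and gained calls was not tested. With 3 cultures a group, the printed intervals give the size of difference that stays possible where no call was made.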
